A study of Mus musculus with 10 samples.

Results

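A set of 10 genes of the KIT and JAK-STAT signalling route was followed in LSK cells, bone marrow cells without lineage markers that carry Sca-1 and c-Kit, among which are the hematopoietic stem cells. They were taken as the rows of the deposited count table with the symbols Kit, Jak1, Jak2, Jak3, Tyk2, Stat3, Stat5a, Stat5b, Socs2 and Cish, which gave 10 of the 25078 genes listed. Each of the 10 had counts in every library, and all of them passed the filter of at least 1 count. CM mice carried the conditional Cbfb56M allele, which encodes the Cbfb-MYH11 fusion, together with Mx1-Cre, and in CM/miR-126Δ/Δ mice these alleles were combined with removal of both floxed miR-126 copies. Mx1-Cre is driven by an interferon-inducible promoter and acts in many tissues, so by design neither the fusion nor the deletion was limited to LSK cells. All mice were on the C57BL/6 background, were injected with poly(I:C) as young adults to switch on the Cre, and were sampled before overt leukemia, 6 weeks after induction, with 5 mice and 5 libraries per genotype. Both groups therefore carried the fusion, the Cre and the treatment, and no library from mice without the fusion is used here. By their Xist and Y-linked transcripts, mice 1, 2 and 3 of each genotype were female and mice 4 and 5 male. The numbers are those of the sample titles, which do not state that same-numbered mice belong together.

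KIT is the receptor tyrosine kinase for stem cell factor, and its surface protein is also the antigen by which LSK cells are sorted. The Janus kinases sit on cytokine receptors such as those for thrombopoietin, interleukin-3 and GM-CSF, and on activation they phosphorylate STAT transcription factors, which then move to the nucleus. Cish and Socs2 are classical genes induced by STAT5, and their proteins restrain the same receptors, so their transcripts are commonly read as a record of recent STAT5 activity. JAK2 and STAT5 carry the thrombopoietin signal that hematopoietic stem cells depend on, and mutations that activate KIT recur in leukemia with the inv(16) rearrangement.

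The gene for the negative regulator CISH is the textbook STAT5 target, and its promoter is shown because STAT5 dimers bind the palindrome TTC-NNN-GAA. Promoter windows of 250 bases before to 50 bases after the annotated start were available from RefSeq (GRCm38.p6) for 9 of the 10 genes, in 12 windows, and Socs2 was not matched. The Cish window, at chr9:107296409-107296708 on the plus strand, held 2 copies of the palindrome, which start at base 1 and base 12 from the annotated start. These are in capitals below.
Cish promoter: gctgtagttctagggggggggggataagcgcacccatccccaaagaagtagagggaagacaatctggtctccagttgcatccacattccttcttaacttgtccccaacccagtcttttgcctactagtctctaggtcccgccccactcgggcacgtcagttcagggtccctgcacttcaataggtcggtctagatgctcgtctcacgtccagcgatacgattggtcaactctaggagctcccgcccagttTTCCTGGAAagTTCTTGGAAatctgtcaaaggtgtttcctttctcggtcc
No other window of the 9 genes held these letters. Of 32851 promoter windows of the same length, 8.3% held at least 1 copy and 0.457% held at least 2. The motif was searched on both strands, on which it reads alike, and a match describes the letters and not binding.

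The deleted microRNA itself was compared with the 3′ untranslated regions of the 10 genes. Its main mature form, encoded on mouse chromosome 2 from 26591402 to 26591423 (GRCm38.p6, plus strand) within Egfl7, is shown with the seed, bases 2 to 8, in capitals.
miR-126a-3p: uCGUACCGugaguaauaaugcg
None of the longest 3′ untranslated regions of the 10 genes, taken from GENCODE M1 transcripts, held the 7-base complement of this seed, CGGTACG, or the 6-base core, GGTACG. Among 19915 genes with such a region, 0.211% held the 7-base match and 2.95% the 6-base match. Sites of other kinds, or outside these regions, were not searched.

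Total counts on genes ran from 23649233 to 33202086 per library, so the smallest level read as detected, 3 counts, was 0.0908 to 0.131 CPM, that is, counts scaled to the library total after TMM adjustment, a limit that covers counting error only. All 9 of the LSK and stem or multipotent progenitor markers were detected, with a summed level, Kit included, of 2999 to 3479 CPM in CM against 2844 to 3515 CPM in CM/miR-126Δ/Δ. Ly6a, the gene of the sort antigen Sca-1, was at 43.6 to 70.3 CPM in CM and 51.1 to 67.4 CPM in CM/miR-126Δ/Δ. The purity of the sort was not tested. Of the 36 markers tested over all lists, 3 had an unadjusted p under 0.05, against 6.61% of all genes, and none an adjusted p under 0.05 (edgeR, lowest adjusted p = 0.661). These were the stem cell genes Hlf and Mecom, which in 5 of 5 same-numbered pairs were higher in the CM/miR-126Δ/Δ mouse (log2 fold changes of 0.31 and 0.24), and the myeloid integrin gene Itgam, lower in 4 of 5 (log2 fold change of -0.35). For Itgam, CM mouse 3 stood apart at 133 CPM, with the other CM mice at 70.4 to 90.0 CPM and CM/miR-126Δ/Δ at 62.0 to 74.1 CPM. The other stem or progenitor markers ran from -0.11 for Cd34 to 0.16 for Slamf1. In the list of Itgam, Elane was at 0.28 and Lyz2 at -0.16. Markers of T cells summed to 4.92 to 11.6 CPM over all libraries, those of B cells to 0.371 to 8.0 CPM and those of erythroid cells to 5.91 to 44.2 CPM, with the globin gene Hba-a1 at 0 in all 10. Megakaryocyte markers summed to 107 to 208 CPM, most of it Itga2b at 102 to 200 CPM. The endothelial markers summed to 166 to 216 CPM, most of it Pecam1, which stem cells also express, at 162 to 214 CPM. Cdh5 was at 0.348 to 1.26 CPM and Kdr at 1.03 to 2.54 CPM. Granulocyte or monocyte markers summed to 1457 to 3912 CPM, most of it from the early gene Mpo, at 1231 to 3622 CPM. In mouse 3 of each genotype this sum exceeded that of the LSK list. It was 3316 against 2999 CPM in CM mouse 3, and 3912 against 3515 CPM in CM/miR-126Δ/Δ mouse 3. The 7 mast cell or basophil markers, of interest because those cells also carry KIT, were all detected and summed to 135 to 289.96 CPM in CM against 134 to 272 CPM in CM/miR-126Δ/Δ.

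Expressed per exon length as RPKM, which allows different genes to be compared, the 10 transcripts covered a wide range, and the order was nearly the same in each mouse. The order rests on the exon lengths of the count table, from which reference transcripts can differ. Socs2 had 2698 bases of exon but 6466 distinct 51-base words in its pooled GENCODE M1 transcripts, and Jak3 had 4085 against 5418. The order by other lengths was not tested. Kit was highest at 173 RPKM ± 20.0 (SD, n = 10 mice, both genotypes). It was followed by Jak1 at 83.1 ± 4.65, Stat3 at 70.2 ± 3.80, Jak3 at 47.6 ± 4.25, Stat5a at 44.2 ± 3.0, Stat5b at 32.4 ± 1.45, Jak2 at 28.8 ± 2.11 and Tyk2 at 14.5 ± 0.556 RPKM. The feedback genes were lowest, with Cish at 7.72 ± 2.44 and Socs2 at 3.76 ± 1.43 RPKM. The kinases and STATs therefore lay between the receptor and the inhibitors, and the 4 Janus kinases were themselves spread from Tyk2 to Jak1.

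For 7 of the 9 neighbouring pairs in this order, the higher gene was higher in all 10 libraries. Kit exceeded Jak1 2.07-fold, and Cish exceeded Socs2 2.10-fold (two-sided exact sign-change permutation tests on log2 RPKM, p = 0.00195 each, the smallest value this test can give; p = 0.00251 after Benjamini-Hochberg adjustment over the 9 pairs). The exceptions were Jak3 against Stat5a, in this order in 8 of 10 libraries with a ratio of 1.08 (adjusted p = 0.0156), and Stat5b against Jak2, in this order in 9 of 10 libraries with a ratio of 1.13 (adjusted p = 0.00659; exact permutation tests). Both differences were past the threshold, yet the values of the paired genes overlapped between mice. These tests cover the spread between mice and not the choice of exon lengths.

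**Figure D1:**
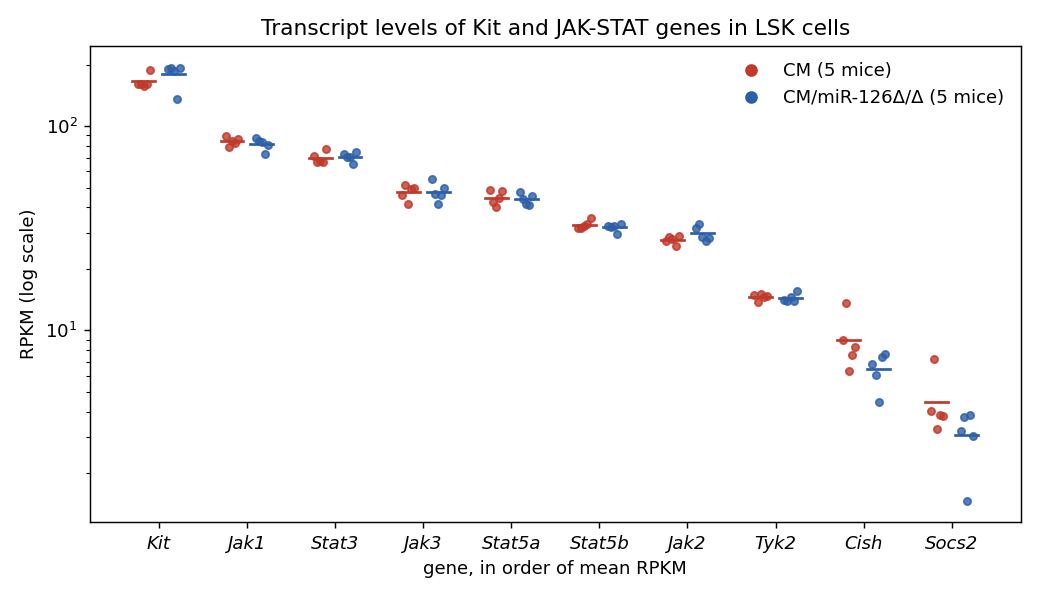
RPKM (log axis) of the 10 genes in each mouse, with red points for CM and blue points for CM/miR-126Δ/Δ and horizontal bars for the mean of 5 mice. Kit stands highest at 173 RPKM, Socs2 lowest at 3.76 RPKM, and the 2 genotypes overlap for every gene.

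The transcripts differed also in how steady they were from mouse to mouse. The coefficient of variation of RPKM over the 10 mice was 3.84% for Tyk2, 4.46% for Stat5b and between 5.42% and 8.92% for Stat3, Jak1, Stat5a, Jak2 and Jak3. Kit was at 11.6%, and Cish and Socs2 were at 31.5% and 38.1%. The inhibitors induced by the pathway were thus the most variable of the 10, and they also had the fewest counts, 308 to 1246 per library for Cish and 91 to 591 for Socs2, against 17732 to 29674 for Kit. These values pool both genotypes, so a difference between genotypes adds to them. For Socs2 they rest largely on CM mouse 2 at 19.5 CPM and CM/miR-126Δ/Δ mouse 3 at 3.96 CPM, with the other mice at 8.19 to 10.9 CPM.

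Genotypes were compared in all 18747 genes with at least 1 count by edgeR's quasi-likelihood F-test on counts, with Benjamini-Hochberg adjustment over all of them. Over these genes 1239 had an unadjusted p under 0.05, which is 6.61%, with 3.32% lower and 3.29% higher in CM/miR-126Δ/Δ, and 2 genes (0.0107%) had an adjusted p under 0.05. Of the 10 genes, 2 had an unadjusted p under 0.05, Socs2 and Cish, both lower in CM/miR-126Δ/Δ. None had an adjusted p under 0.05. None met the study's cut-offs, which ask for p of 0.01 or less, 1.5-fold or more and an average RPKM reaching 1 in either genotype, and which 54 genes met in this fit (0.288%). In no member did the genotypes separate without overlap, as 1.1% of all genes did. The median log2 fold change over all genes was -0.01.

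Kit (chromosome 5, 75574987 to 75656721 in mm10, plus strand) was measured at 829.9, 837, 811, 836 and 979.8 CPM in CM mice 1 to 5, and at 984, 994, 963, 702 and 1001 CPM in CM/miR-126Δ/Δ mice 1 to 5. In all, 4 of the 5 CM/miR-126Δ/Δ mice lay above 4 of the 5 CM mice, but CM mouse 5 reached the upper group, and CM/miR-126Δ/Δ mouse 4 was the lowest of all. The means were 859 ± 68.5 and 929 ± 128 CPM (SD, n = 5 each), with a log2 fold change of 0.11 ± 0.11 (SE; edgeR, adjusted p = 0.777; exact permutation test on CPM, p = 0.214). In fold terms the 95% interval was 0.936 to 1.25. This and the later intervals are normal approximations, narrower than intervals that match the F-test. Without CM/miR-126Δ/Δ mouse 4 the log2 fold change was 0.21 with an unadjusted p of 0.0147 (edgeR, adjusted p = 0.413). In that library the summed LSK and stem or multipotent progenitor markers, Kit among them, were also lowest at 2844 CPM, the mast cell or basophil markers summed to 272 CPM, the highest of that genotype, and their part in the Kit value was not tested. Because these are bulk samples, fewer cells of a type and less RNA per cell cannot be told apart. Since LSK cells are gated on KIT protein, the transcript was compared within cells that had already been chosen for it.

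Among the Janus kinases, which bind the receptors and start the cascade, no transcript passed the test between genotypes. Jak1, used by most cytokine receptors of blood cells (chromosome 4, 101151974 to 101265282, minus strand), was at 474, 419, 446, 439 and 456 CPM in CM mice 1 to 5, and at 464, 446, 444, 387 and 427 CPM in CM/miR-126Δ/Δ. Jak2, the kinase of the thrombopoietin, erythropoietin and GM-CSF receptors (chromosome 19, 29251803 to 29313092, plus strand), was at 139, 146, 142, 132 and 147 CPM in CM mice 1 to 5, and at 160.3, 168, 145, 139 and 144 CPM in CM/miR-126Δ/Δ. Values of both kinases overlapped widely, and in 4 of 5 same-numbered pairs the CM/miR-126Δ/Δ mouse was higher for Jak2 and lower for Jak1. The log2 fold changes were -0.04 ± 0.07 for Jak1 (SE; edgeR, adjusted p = 0.898) and 0.10 ± 0.06 for Jak2 (adjusted p = 0.765), and exact permutation tests on CPM gave p = 0.437 and 0.167.

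Jak3 works with the common gamma chain of the interleukin-2 receptor family, and Tyk2 with the receptors for type I interferon. Jak3 (chromosome 8, 71676383 to 71690577, plus strand) was at 188, 211, 169, 201 and 204 CPM in CM mice 1 to 5, and at 224, 189, 169, 188 and 203 CPM in CM/miR-126Δ/Δ. Tyk2 (chromosome 9, 21104068 to 21131275, minus strand) was at 72.5, 67.2, 73.3, 71.0 and 71.5 CPM in CM mice 1 to 5, and at 68.8, 68.1, 71.0, 67.8 and 75.6 CPM in CM/miR-126Δ/Δ. Neither gene showed an ordered difference, and the genotype means were 195 ± 16.4 and 195 ± 20.2 CPM for Jak3 and 71.1 ± 2.37 and 70.3 ± 3.24 CPM for Tyk2 (SD, n = 5 each). The 95% intervals of the fold were 0.897 to 1.11 for Jak3 and 0.923 to 1.06 for Tyk2.

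As a share of the summed RPKM of the 4 Janus kinases, Jak1 made up 48.4% ± 1.87 in CM against 47.1% ± 1.62 in the CM/miR-126Δ/Δ group (SD, n = 5 each; two-sided exact permutation test, p = 0.278). Jak2 made up 15.4%, 16.6%, 16.6%, 15.1% and 16.1% in CM mice 1 to 5, and 16.8%, 18.7%, 16.96%, 17.1% and 16.3% in CM/miR-126Δ/Δ mice 1 to 5. Its share was thus higher in each same-numbered CM/miR-126Δ/Δ mouse, although the groups overlapped. The means were 16.0% ± 0.709 and 17.2% ± 0.896, a difference of 1.22 percentage points (exact permutation test, p = 0.0317, and p = 0.159 after adjustment over the 5 shares computed). By sign changes of the paired differences p was 0.0625, the smallest value that 5 pairs allow. Without CM mouse 1, 4 or 5 or CM/miR-126Δ/Δ mouse 2, 3 or 4 the exact permutation p was 0.0556 to 0.0794. Jak3 made up 27.3% ± 2.08 and 27.4% ± 1.95, and Tyk2 8.37% ± 0.359 and 8.32% ± 0.60 (exact permutation tests, p = 0.889 and 0.873). Beyond Jak2, the balance of the 4 kinases differed between genotypes by less than the spread between mice.

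The STAT transcripts were among the steadiest. Stat3, the factor downstream of interleukin-6 and G-CSF (chromosome 11, 100886806 to 100939540, minus strand), was at 321, 302, 304, 301 and 348 CPM in CM mice 1 to 5, and at 329, 319.9, 318, 294 and 336 CPM in CM/miR-126Δ/Δ. Stat5a (chromosome 11, 100859351 to 100885169, plus strand) was at 192, 169, 159, 175 and 189.8 CPM in CM mice 1 to 5, and at 188, 174, 165, 163 and 181 CPM in CM/miR-126Δ/Δ. Stat5b (chromosome 11, 100780731 to 100850581, minus strand) was at 252, 254, 258, 263 and 282 CPM in CM mice 1 to 5, and at 257, 254, 258, 237 and 264 CPM in CM/miR-126Δ/Δ. Each of them overlapped between genotypes. CM mouse 5 was highest for Stat3 and Stat5b, and CM/miR-126Δ/Δ mouse 4 was lowest for both. The log2 fold changes were 0.02 ± 0.06 for Stat3, -0.03 ± 0.07 for Stat5a and -0.05 ± 0.06 for Stat5b (SE; edgeR, adjusted p = 0.964, 0.945 and 0.863; exact permutation tests on CPM, p = 0.722, 0.698 and 0.373). In fold, the 95% intervals were 0.929 to 1.11, 0.897 to 1.08 and 0.897 to 1.05.

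Stat5a, Stat5b and Stat3 lie next to one another on chromosome 11, and STAT5A and STAT5B are near-identical proteins that bind the same sites. Per exon length Stat5a was the higher of this pair in all 10 mice, 1.36-fold, whereas Stat5b, with 7954 bases of exon against 3968, had the higher CPM. This order and the share below rest on these lengths. The reference transcripts held 4150 distinct 51-base words for Stat5a and 5487 for Stat5b, and the order by other lengths was not tested. Stat5a made up 57.5% ± 1.89 of the summed RPKM of the pair in CM and 57.9% ± 1.17 in the CM/miR-126Δ/Δ group (SD, n = 5 each; exact permutation test, p = 0.706). Of the 51-base words in their reference transcripts, 51 bases being the read length, 14.4% of those of Stat5a and 10.9% of those of Stat5b were shared, so reads from these stretches cannot be assigned to either gene with certainty. Pairs checked among the Janus kinases, Stat3 with Stat5a, and Socs2 with Cish shared 0.

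**Figure D2:**
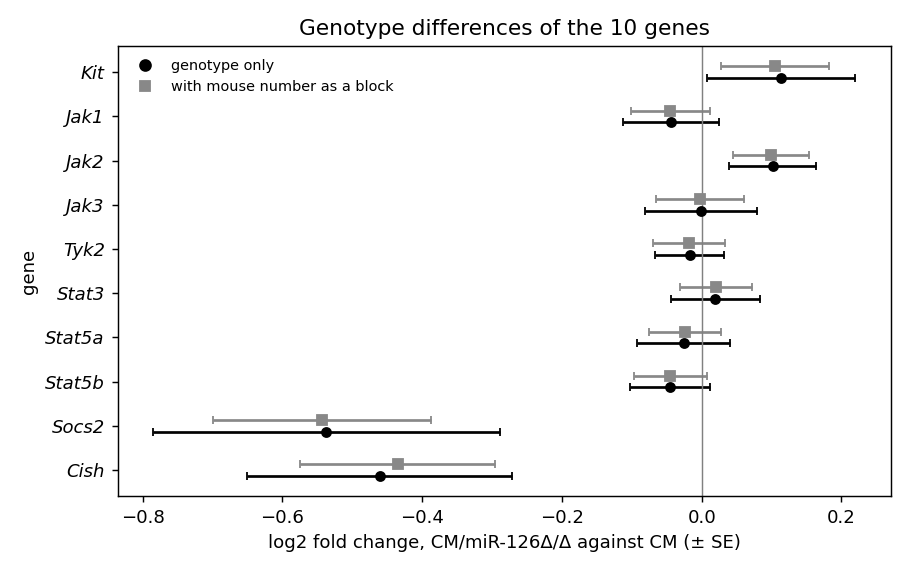
Log2 fold change of CM/miR-126Δ/Δ against CM with its SE for each of the 10 genes, as black circles for the fit with genotype only and grey squares for the fit with mouse number as a block. The first 8 genes lie between -0.05 and 0.11, and Socs2 and Cish at -0.54 and -0.46 in the fit with genotype only.

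Socs2 and Cish were the members with the largest differences. Socs2 (chromosome 10, 95411490 to 95416857, minus strand), an inhibitor of growth hormone and cytokine receptor signalling, was at 10.9, 19.5, 8.92, 10.5 and 10.3 CPM in CM mice 1 to 5. In CM/miR-126Δ/Δ mice 1 to 5 it was at 8.64, 10.2, 3.96, 10.4 and 8.19 CPM. One CM mouse stood far above the rest, mouse 2, and 1 CM/miR-126Δ/Δ mouse far below, mouse 3, while the other 8 mice lay between 8.19 and 10.9 CPM. The means were 12.03 ± 4.26 and 8.28 ± 2.60 CPM (SD, n = 5 each), with a log2 fold change of -0.54 ± 0.25 (SE; edgeR, adjusted p = 0.754, unadjusted p of 0.0485). The normal 95% interval in fold was 0.492 to 0.966, which is narrower than an interval that matches this p. The two-sided exact permutation test on CPM gave p = 0.0556, where the smallest possible value is 0.00794.

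Cish (chromosome 9, 107296659 to 107302784, plus strand), which damps signalling from STAT5-activating receptors, was at 27.0, 41.2, 19.0, 22.7 and 24.9 CPM in CM mice 1 to 5. In CM/miR-126Δ/Δ mice 1 to 5 it was at 20.7, 18.2, 13.4, 22.4 and 23.2 CPM. The same mice were at the extremes, CM mouse 2 highest and CM/miR-126Δ/Δ mouse 3 lowest, and the remaining values overlapped. The means were 27.0 ± 8.47 and 19.6 ± 3.95 CPM (SD, n = 5 each), with a log2 fold change of -0.46 ± 0.19 (SE; edgeR, adjusted p = 0.746, unadjusted p of 0.029) and an exact permutation p of 0.0714. The normal 95% interval in fold was 0.562 to 0.94, again narrower than an interval that matches the edgeR p.

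Both genes were lower in the CM/miR-126Δ/Δ mouse of all 5 same-numbered pairs, against 4.61% of all genes. The pairs were unequal: the log2 differences for Socs2 were -0.33, -0.94, -1.17, -0.01 and -0.34 in pairs 1 to 5, and those for Cish -0.39, -1.17, -0.51, -0.02 and -0.10. In pair 4 the 2 mice were almost equal for both genes, and pairs 2 and 3 carried most of the difference. The mean log2 difference was -0.81 for Socs2 and -0.69 for Cish over the 3 female pairs, against -0.17 and -0.06 over the 2 male pairs. The interaction of genotype and sex had an unadjusted p of 0.235 for Socs2 and 0.0782 for Cish (edgeR; adjusted p = 1.0 for both), and 0 of the 10 genes had p under 0.05 for it against 2.57% of all genes and 1 gene of all with an adjusted p under 0.05.

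With the mouse number as a block, which compares each mouse with its same-numbered partner, the log2 fold changes were -0.54 ± 0.16 for Socs2 and -0.43 ± 0.14 for Cish (SE; edgeR, adjusted p = 0.26 and 0.32, unadjusted p of 0.00458 and 0.00911). With an unadjusted p of 0.01 or less these 2 of the 10 genes were lower, against 1.39% of all genes, while exact sign changes of the 5 paired differences gave p = 0.0625 for each, the smallest value possible. The block raised the genes meeting the study's cut-offs from 54 to 115 and those with an adjusted p under 0.05 from 2 to 20, none of them among the 10. Without CM mouse 2 and no block the values were -0.29 for Socs2 and -0.26 for Cish (unadjusted p of 0.189 and 0.109), and without the whole of pair 2 but with the block, a fit chosen after seeing the data, they were -0.44 and -0.25 (unadjusted p of 0.0247 and 0.0357, edgeR). Without CM/miR-126Δ/Δ mouse 3 and no block they were -0.36 and -0.35 (unadjusted p of 0.0943 and 0.0719). In the fit without a block, leaving out any 1 of 7 libraries brought the unadjusted p of Socs2 above 0.05, and any 1 of 4 that of Cish: CM mice 1, 2, 4 and 5 and CM/miR-126Δ/Δ mice 1, 3 and 5 for Socs2, and CM mice 1 and 2 and CM/miR-126Δ/Δ mice 2 and 3 for Cish. The granulocyte or monocyte markers summed to 1683 CPM in CM mouse 2, the lowest CM value, and to 3912 CPM in CM/miR-126Δ/Δ mouse 3, the highest of all 10. Most of both sums was Mpo, at 1506 and 3622 CPM. In CM/miR-126Δ/Δ mouse 3 Elane was also highest of all 10 at 129 CPM, but Lyz2 was lowest of that genotype at 94.0 CPM, with Itgam at 66.9 CPM and Ly6g at 0. The erythroid markers were lowest of all in CM mouse 2 at 5.91 CPM. The B cell markers summed to 6.81 CPM in CM mouse 2 and to 0.392 CPM in CM/miR-126Δ/Δ mouse 3. The megakaryocyte sum was lowest of all in the latter at 107 CPM, of which Itga2b was 102 CPM. That library also had the largest share of counts on the ribosomal RNA precursor gene Rn45s, 22.6% against 14.8% to 18.6% in the others, and the lowest TMM factor, 0.922 against 0.968 to 1.05. With Rn45s left out of all libraries the log2 fold changes were -0.53 for Socs2 and -0.45 for Cish (unadjusted p of 0.0495 and 0.0302, edgeR). The part of these cells, and of the Hlf, Mecom and Itgam values, none with an adjusted p under 0.05, in the Socs2 and Cish values was not tested.

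**Figure D3:**
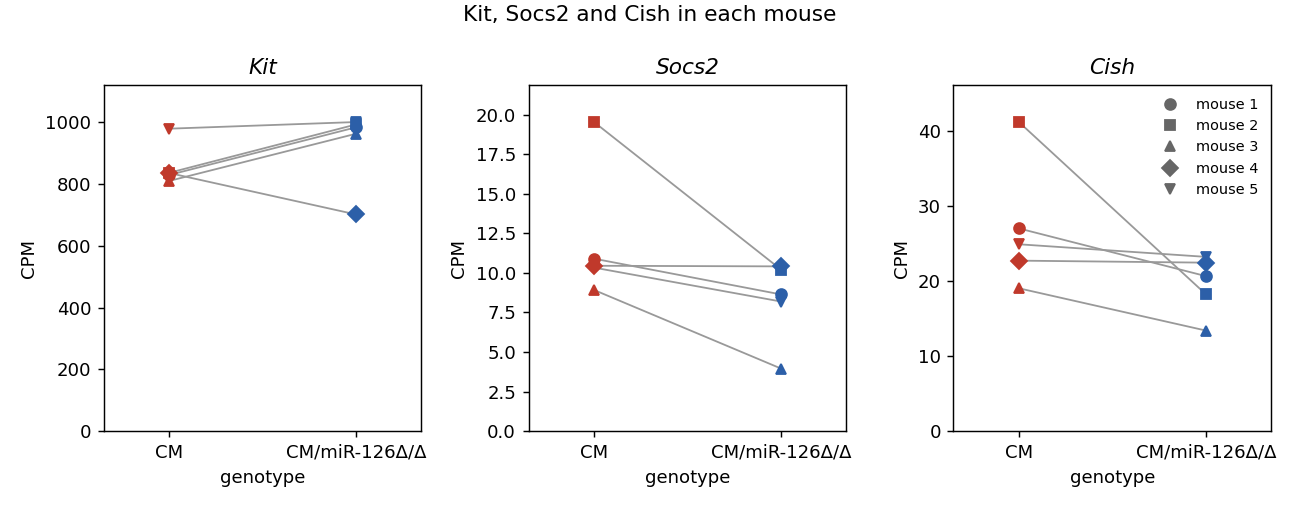
CPM of Kit, Socs2 and Cish in each mouse, with CM in red and CM/miR-126Δ/Δ in blue, 1 marker shape per mouse number and a line joining same-numbered mice. Lines for Socs2 and Cish slope down or lie flat in all 5 pairs, with CM mouse 2 highest at 19.5 and 41.2 CPM, and Kit is lowest in CM/miR-126Δ/Δ mouse 4 at 702 CPM.

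Genes that vary together from mouse to mouse were sought in the deviations of log2 CPM from the genotype mean, over 10 mice and all 45 pairs of the 10 genes. Of these pairs 33 had a positive and 12 a negative correlation. Socs2 and Cish moved together (Pearson r = 0.87, permutation p = 0.0108; Spearman rho = 0.81, p = 0.0167). With CM mouse 2 and CM/miR-126Δ/Δ mouse 3 left out r was 0.67, and within the 6 female mice it was 0.89. Kit varied with Stat5b (r = 0.87, p = 0.0165; rho = 0.84, p = 0.0183) and with Stat3 (r = 0.83, p = 0.0115; rho = 0.79, p = 0.0189). With CM mouse 5 and CM/miR-126Δ/Δ mouse 4 left out these were 0.75 and 0.72, and within the 6 female mice 0.78 and 0.57. Of the 45 pairs, 6 had a permutation p under 0.05, and none passed Benjamini-Hochberg adjustment over the 45 pairs (lowest adjusted p = 0.19; exact permutation within genotype). Of the remaining 3, Stat3 with Stat5b had r = 0.84 (permutation p = 0.0211; rho = 0.68, p = 0.0455), which was 0.50 with CM mouse 5 and CM/miR-126Δ/Δ mouse 4 left out and 0.35 within the females. Stat3 with Stat5a had r = 0.76 (permutation p = 0.0194; rho = 0.75, p = 0.0267), which was 0.72 without those mice and 0.86 within the females. Jak3 with Cish had r = 0.70 (permutation p = 0.0391; rho = 0.61, p = 0.0858), and the relation rested on CM mouse 3 and CM/miR-126Δ/Δ mouse 3, since r was 0.28 without them. Socs2 and Cish had negative coefficients with Kit, Jak1, Tyk2, Stat3 and Stat5b and positive ones with Jak2, Jak3 and Stat5a. Of these only Jak3 with Cish had a permutation p under 0.05. Several signs turned without the 2 libraries farthest from the median of the other gene. Kit then had r of 0.06 with Socs2 and 0.10 with Cish, and Jak1 had 0.15 and 0.20. Stat5a had -0.03 and -0.0047, and Stat3 with Cish had 0.16. All values share library size scaling, and the males, 4 mice, are too few for a value of their own.

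**Figure D4:**
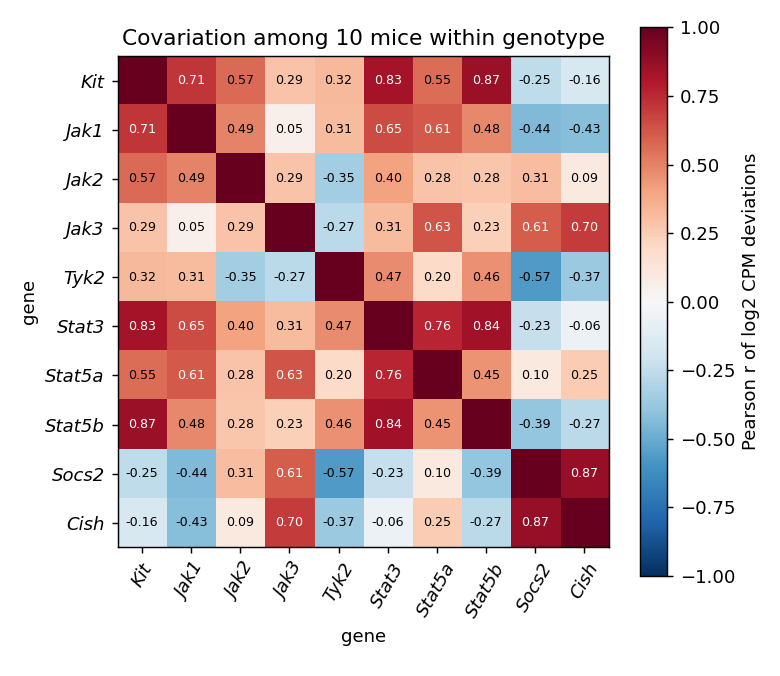
Pearson r between each pair of the 10 genes over 10 mice, from deviations of log2 CPM from the genotype mean, on a color scale from blue (negative) to red (positive). Kit, Stat3 and Stat5b form 1 red group with r of 0.83 to 0.87, and Socs2 with Cish another at 0.87.

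Among 11532 genes that averaged 1 RPKM or more, those most like Kit in these deviations were Arhgap23 (r = 0.96), Ift172 (r = 0.94) and Eng (r = 0.94), the last encoding endoglin, a surface co-receptor for TGF-beta. Those most like Socs2 were Rasgef1b (r = 0.96) and the small nucleolar RNAs Snord32a (r = 0.94) and Snora21 (r = 0.93), and those most like Cish were Cxxc1 (r = 0.95), Rfng (r = 0.94) and Mzb1 (r = 0.93). These are the highest of many coefficients over 10 libraries and are given as a description.

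The wider route was described by 7 lists with 83 further genes, all of them tested. Over the lists 5 genes were lower in CM/miR-126Δ/Δ with an unadjusted p under 0.05, against 3.32% of all genes, and 1 was higher, against 3.29%, none with an adjusted p under 0.05. With the block these counts were 13 and 3, against 4.62% and 4.27% of all genes. The median log2 fold change over the 83 genes was -0.04, and 57 of the 83 were below 0, against 52.6% of all genes. The part of the marker values given above in these list values was not tested.

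Of 34 receptors that signal through Janus kinases, 4 had p under 0.05 and all were lower, where 3.32% of all genes were, and 24 had a negative log2 fold change (median -0.06), where 52.6% of all genes did. With the block 7 were lower at p under 0.05, against 4.62% of all genes, the further 3 being Il6ra, Csf2rb2 and Il10ra (unadjusted p of 0.0136, 0.0385 and 0.047, edgeR), which are named after their values were seen. Il7r, the receptor of the lymphoid growth factor interleukin-7, was at 17.9 ± 6.53 CPM in CM mice against 9.25 ± 3.62 CPM in the CM/miR-126Δ/Δ group (SD, n = 5 each), with a log2 fold change of -0.95 ± 0.28 (SE; edgeR, adjusted p = 0.626). Lifr, the receptor for leukemia inhibitory factor, was at 11.4 ± 3.80 and 6.45 ± 2.03 CPM, with a log2 fold change of -0.82 ± 0.24 (edgeR, adjusted p = 0.612). Csf2ra and Csf2rb, the alpha chain of the GM-CSF receptor and the beta chain that it shares with the receptors for interleukin-3 and interleukin-5, had log2 fold changes of -0.28 ± 0.11 and -0.21 ± 0.08 (adjusted p = 0.746 for both). Il7r, Csf2ra and Csf2rb were lower in 5 of 5 same-numbered pairs and Lifr in 4 of 5. Csf2rb and its near copy Csf2rb2 shared 17.1% and 18.7% of their 51-base words, so their counts are uncertain. The 2 receptors with the highest RPKM, Ifngr1 and Il2rg, had log2 fold changes of -0.01 and -0.07.

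Of the 6 other SOCS genes 0 had p under 0.05. Socs3, the STAT3-induced inhibitor and the highest of them at 30.0 RPKM, was at 94.4 ± 30.7 CPM in CM mice against 69.2 ± 21.6 CPM in CM/miR-126Δ/Δ, with a log2 fold change of -0.45 ± 0.23 (SE; edgeR, adjusted p = 0.764, and adjusted p = 0.32 with the block, where its unadjusted p was under 0.05). Socs4 was at 39.9 ± 2.79 and 40.3 ± 3.84 CPM. The spread between mice was thus wide in Socs3, as it was in Socs2 and Cish, and narrow in Socs4. The 4 other STATs had 0 genes with p under 0.05, with log2 fold changes of 0.05 for Stat4 and -0.04 for Stat6, the 2 most abundant.

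Among 9 other genes known to be induced by STAT5 or STAT3, 7 had a negative log2 fold change (median -0.16), against 52.6% of all genes. In this list 1 gene had p under 0.05 and was lower, against 3.32% of all genes. That gene was Osm, which encodes the cytokine oncostatin M, at 29.4 ± 14.5 CPM in CM mice against 17.4 ± 6.27 CPM in the CM/miR-126Δ/Δ group (SD, n = 5 each), with a log2 fold change of -0.75 ± 0.30 (SE; edgeR, adjusted p = 0.746). It was lower in 4 of 5 pairs. The most abundant of this list, Myc and the kinase gene Pim1, had log2 fold changes of -0.17 and -0.13. With the block 3 genes of this list were lower and 1 was higher at p under 0.05, against 4.62% and 4.27% of all genes.

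Of 11 other brakes on the route, 1 had p under 0.05 and was higher, against 3.29% of all genes. This was the ubiquitin ligase gene Cblb, at 87.9 ± 4.41 CPM in CM mice against 97.0 ± 8.33 CPM in CM/miR-126Δ/Δ, with a log2 fold change of 0.14 ± 0.06 (SE; edgeR, adjusted p = 0.748), higher in 4 of 5 pairs. With the block its relative Cbl, named after its value was seen, was higher as well (unadjusted p of 0.0448, edgeR), against 4.27% of all genes. The phosphatase genes Ptpn6 and Ptprc, the most abundant of this list, had log2 fold changes of -0.06 and -0.00316. Of 7 genes for the KIT ligand, sister receptors and their ligands 0 had p under 0.05, and Flt3, which marks lymphoid-primed multipotent progenitors, was at 426 ± 56.6 and 411 ± 59.2 CPM. Csf1r, the receptor of macrophages, had a log2 fold change of -0.22 and was lower in all 5 pairs (edgeR, adjusted p = 0.812, and adjusted p = 0.278 with the block, where its unadjusted p was 0.00551). Of 12 proteins that bind or act just below KIT 0 had p under 0.05, and the adaptor gene Grb2 and the phospholipase gene Plcg2 had log2 fold changes of -0.04 and -0.02. With the block 1 of the 12 was lower, against 4.62% of all genes, the kinase gene Fyn, named after its value was seen (unadjusted p of 0.042, edgeR).

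**Figure D5:**
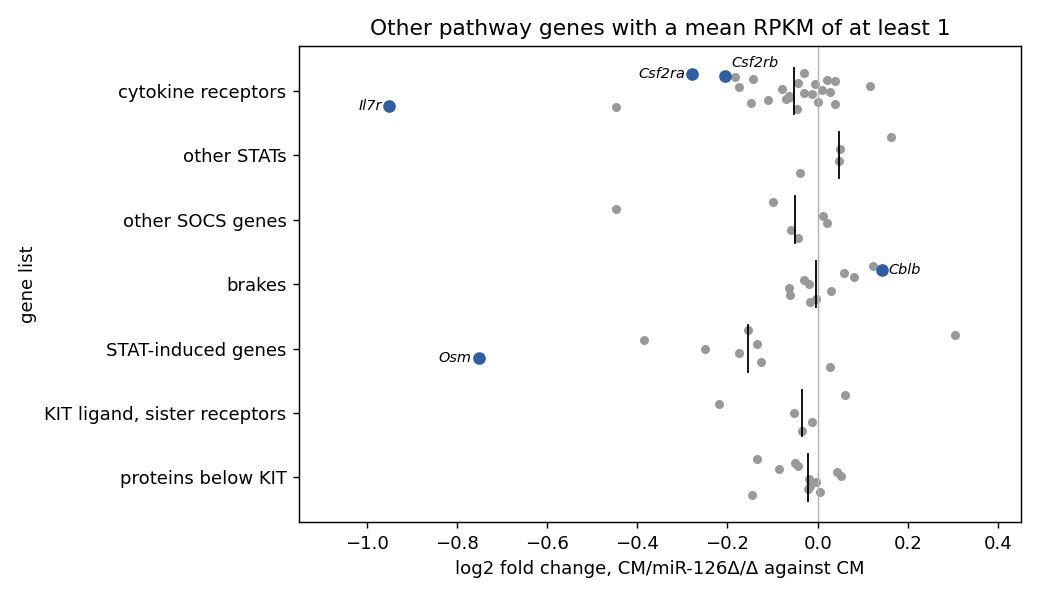
Log2 fold change of CM/miR-126Δ/Δ against CM for those genes of 7 lists that averaged 1 RPKM or more, 1 point per gene, with larger blue points for an unadjusted p under 0.05 and a black bar for the median of the points. Il7r, Osm, Csf2ra and Csf2rb lie below 0 and Cblb above it, and the medians lie between -0.16 and 0.05. Lifr is below 1 RPKM and is not drawn.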

How the data were processed

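RNA was sequenced from LSK cells of 5 mice per genotype, 1 library each, grouped by the sample titles. The authors removed ribosomal RNA with a stranded kit, trimmed the reads (Trimmomatic, FASTP), aligned them to mm10 with TopHat and used HTSeq 0.6.1p1 to count reads per RefSeq gene. The deposited counts are whole numbers, not normalized, for 25078 genes. Whether counting used the strand is not given in the sources used here, so overlapping genes may share reads. Of the 10 genes, Jak1 overlaps Raver2 on the other strand (mean count 300.7 against 12004) and Jak3 overlaps Insl3 (22.7 against 5316). A second deposited table, each count divided by 1 constant per library, was not used. RPKM was computed here by dividing counts by exon length and by library size after TMM scaling.

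Genes with at least 1 count were fitted with edgeR 4.0.16 in R 4.3.3 (TMM, quasi-likelihood F-test, two-sided, genotype only) a procedure first tested on simulated data. SE was taken as the log2 fold change over √F, and intervals are normal at 95%. The intervals leave out the limited degrees of freedom of the F-test, so they are narrower than intervals that match its p-values. Permutation tests used numpy 2.4.6. Deviations from the genotype mean correlated at 0.202 to 0.484 within the 5 same-numbered pairs of the labels (genes with RPKM of at least 1), so the block was also fitted. The mean over differently numbered pairs was -0.088. However, CM mouse 2 correlated best with CM/miR-126Δ/Δ mouse 1, and CM mouse 5 with CM/miR-126Δ/Δ mouse 4. Same-numbered mice also shared their sex, and a true pairing was not tested apart from shared sex. Other settings were RLE factors, DESeq2 1.42.0, filterByExpr, every listed gene, sex as a covariate, Rn45s left out, and each library left out.

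The members, the pathway lists and the marker lists were chosen with earlier results of these data known. The rule for genes named beyond the members took those of each pathway list with p at or below 0.05, the 2 of each such list with the highest RPKM, and the 3 genes most like Kit, Socs2 and Cish. Outside this rule, Il6ra, Csf2rb2, Il10ra, Cbl and Fyn were named after their values in the fit with the block were seen. Marker genes are named apart from the rule.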

Additional observations from a re-analysis of the deposited data

Results flagged for a closer look

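Within each genotype, 1 mouse stood apart from the other 4 in 3 of the 30 groups examined (each of the 10 genes and 5 shares in either genotype), judged by the gap to the nearest mouse relative to the whole range (Dixon's criterion). Chance alone would give about 1.5 in 30. Kit was at 979.8 CPM in CM mouse 5, where the other CM mice were at 811 to 837 CPM, and the gap made up 0.844 of the range. In the other genotype Kit was at 702 CPM in CM/miR-126Δ/Δ mouse 4, where the others were at 963 to 1001 CPM (0.874 of the range). Socs2 was at 19.5 CPM in CM mouse 2, where the others were at 8.92 to 10.9 CPM (0.814 of the range). The cause of these values was not tested.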

How the results depend on the processing

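Kit, Jak2, Stat3, Stat5b, Socs2 and Cish kept the sign of their log2 fold change in all 18 alternative fits, with Socs2 at -0.62 to -0.29 (unadjusted p 0.00458 to 0.189) and Cish at -0.55 to -0.25 (p 0.00911 to 0.109). The lowest adjusted p of any member in these fits was 0.26, for Socs2 with the replicate block. The count of members with an unadjusted p under 0.05, 2 as reported, was 1 with RLE factors, with filterByExpr and with sex as a covariate, in each of which Socs2 lost its place. It ran from 0 to 4 with 1 library left out: it was 0 without CM mouse 1, CM mouse 2 or CM/miR-126Δ/Δ mouse 3, and 4 without CM/miR-126Δ/Δ mouse 4, when Kit and Jak2 joined with an unadjusted p of 0.0147 and 0.0372 (edgeR, adjusted p = 0.413 and 0.498). In that last fit the genes past the cut-offs for p, fold and RPKM also rose over all genes, from 54 to 94. In the fits with 0 members they numbered 48, 68 and 61. The share of all genes with an unadjusted p under 0.05 is not given for these fits. The sign turned for log2 fold changes close to 0. Jak3 was at 0.0088 with RLE factors and with DESeq2, 0.0174 with filterByExpr, 1.78e-05 with sex as a covariate, 0.0040 without Rn45s and 0.0365 with the replicate block without pair 2, and Tyk2 was at 0.00067 with filterByExpr. With 1 library left out, Jak3 ran from -0.0442 to 0.0450, Tyk2 from -0.0451 to 0.00937, Stat5a from -0.0492 to 0.0180 and Jak1 from -0.0657 to 0.00878.

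Genes past the cut-offs for p, fold and RPKM, 54 in the genotype-only fit here, numbered 115 with the replicate block and also without pair 2, 111 with no RPKM cut-off, and 33 to 128 with 1 library left out (128 without CM mouse 3, 33 without CM/miR-126Δ/Δ mouse 5, 85 without mouse 1 and 94 without mouse 4 of that genotype). The difference in Jak2 share was 1.22 points with p = 0.0625 by paired sign changes (exact permutation, the smallest it can give) and 0.844 to 1.44 with 1 library left out, where p was above 0.05 in 6 of the 10 cases. The Stat5a share differed by -0.218 to 1.10 points with 1 library left out. With the block the same count of 2 members had an unadjusted p under 0.05, and in 6 of the 7 pathway lists it moved the count of such genes, as given beside each list. The causes of these shifts were not tested. Socs2 had the fewest counts of the members, 91 to 591 per library.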
